A study of Mus musculus with 2 samples.

Results

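Bone morphogenetic protein (BMP) signalling was described through 10 genes taken by symbol from the 32285 genes of the count tables. They were the ligands Bmp2, Bmp4, Bmp5 and Bmp6, the type I receptors Bmpr1a, Bmpr1b and Acvr1, the type II receptor Bmpr2, and the extracellular antagonists Grem1 and Nog. UMIs (molecules counted once by their molecular identifier) of 8 of the 10 genes were found in the nuclei kept for analysis, and 7 had at least 10 UMIs there, the minimum for a ratio between populations to be read. Single-nucleus RNA-seq was performed on the periosteum with hematoma and callus of C57BL6 mice, aged 10 to 14 weeks by the study's methods, at day 5 after a musculoskeletal traumatic injury (MTI), in which an open, non-stabilized tibial fracture is combined with crushing of the muscles around it. The second library of the series came from the same tissue at day 1 after a fracture without that muscle injury. Each library pooled tissue of 3 or 4 mice. By the study's methods, experimental groups held both sexes, but the sexes in each pool are not given there. There was 1 library per condition, so no difference between mice could be measured and no p-value is given. The labels give both libraries the same C57BL6 genotype and name no other allele or treatment.

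BMPs are secreted dimers of the TGF-beta family that bind a complex of type I and type II serine/threonine kinase receptors. The type II receptor phosphorylates the type I receptor, which phosphorylates SMAD1, SMAD5 and SMAD9. These move to the nucleus with SMAD4 and switch on targets such as the Id genes. Antagonists such as gremlin 1 and noggin hold the ligand away from its receptors. In bone, BMPs drive periosteal progenitors into cartilage and bone, and in skeletal muscle the pathway acts on satellite cells and on fibre size.

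After the filters, 1129 nuclei with 4348176 UMIs remained of 1446 barcodes with 5899407 UMIs in the day 5 post-MTI library, and their depth ran from 500 to 22993 UMIs with a median of 2364. They were clustered without the BMP pathway genes and named from markers, which gave 14 populations. The skeletal nuclei (182) were led by Tbx18, Aspn and Ror2. They split into 108 chondro-osteogenic-like nuclei, led by Ibsp, Col9a3 and Matn3, and 74 other skeletal nuclei that took no name. The split moved with depth, since the median was 7827 UMIs in the former and 1422 in the latter. Of the marker lists, the fibroblastic one stood at 16094 and 11893 UMIs per 1000000 and the chondro-osteogenic one at 9714 and 6294, so both lists were higher in the deeper population. Both lists hold Pdgfra, Prrx1, Col1a1 and Col1a2, so their levels are not independent of each other. The other populations were 36 endothelial-like, 101 myogenic-like, 199 macrophage-like, 74 other immune (led by Mmp12 and Gpnmb), 73 monocyte-like, 84 neutrophil-like, 50 lymphoid-like, 30 osteoclast-like and 33 erythroid-like nuclei. The erythroid-like nuclei held the 7 erythroid markers at 711 UMIs per 1000000 but the 8 immune markers at 5544, against 6658 in the immune nuclei, and were not counted among the immune nuclei. A cluster of 27 nuclei led by Chodl, Dcx and Pax7, the last a satellite cell factor, took no name under the marker rule. The 11 myogenic markers, Pax7 among them, stood there at 8547 UMIs per 1000000, against 53121 in the myogenic-like nuclei. Its endothelial list stood at 2557 and its fibroblastic list at 1905. The endothelial value came from 3 of the 7 markers, with 0 UMIs of Pecam1 and Emcn and 1 of Ptprb. That list stood at 3109 in the myogenic-like and 11059 in the endothelial-like nuclei. Clusters led by Elf5 (176 nuclei, median 687 UMIs) and by Hspa1a (64 nuclei, median 773 UMIs) were shallow and also took no name. The study's methods describe myogenic cells in such samples as contamination and took them out of its analysis. Here the myogenic-like nuclei and the cluster led by Chodl, Dcx and Pax7 were kept. Both are therefore part of all other nuclei in the ratios of the remaining populations. The 2 libraries shared 33 cell barcodes, of which 29 were among the nuclei kept.

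Levels are UMIs of a gene per 1000000 UMIs of a population (CPM), with an exact Poisson 95% interval. Ratios are CPM of a population over CPM of the nuclei it is set against, with an exact conditional binomial 95% interval. These intervals cover counting error only, and they are too narrow where a few nuclei hold most UMIs of a gene, so the number of nuclei is given beside each level. In pooled nuclei, fewer expressing nuclei and less RNA per nucleus cannot be told apart from the CPM alone.

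The 10 genes lie on mouse chromosomes 1, 2, 3, 9, 11, 13 and 14 (GRCm38/mm10, GENCODE annotation). Bmp5 spans chr9:75775364-75900310 on the plus strand, Bmp6 chr13:38345107-38500302 on the plus strand, and Bmpr1b chr3:141837136-142169425 on the minus strand. Bmpr1a lies at chr14:34410734-34503341 (minus), Acvr1 at chr2:58388644-58567157 (minus) and Bmpr2 at chr1:59763400-59879014 (plus). Nog, at chr11:89300638-89302332 (minus), is a gene of 1.70 kb, whereas Bmpr1b covers 332 kb. Intronic reads were counted, so a long gene has more places to yield a UMI, and levels are compared here between populations for 1 gene and never between genes. Annotated genes overlapped Bmp5 and Bmpr2 on the same strand, but none of those overlapping genes had a row in the count tables. On the opposite strand, genes overlapped Bmp4, Bmp5, Bmp6, Bmpr1a and Acvr1, among them Txndc5 at Bmp6, and the strand setting of the counting is not given in the sources used here.

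The sequence just before the annotated start of Bmp5 is shown because Bmp5 was the ligand with the largest skeletal ratio. It is the 249 bases at chr9:75775115-75775363, plus strand, from RefSeq on GRCm38.p6, with the match to CAGAC (the core of a SMAD-binding element, searched on both strands) in capitals.
Bmp5: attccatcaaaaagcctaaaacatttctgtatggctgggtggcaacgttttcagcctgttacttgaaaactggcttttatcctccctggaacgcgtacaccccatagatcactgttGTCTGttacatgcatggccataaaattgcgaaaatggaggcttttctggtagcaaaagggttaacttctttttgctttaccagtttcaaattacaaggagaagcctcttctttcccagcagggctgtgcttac
The window held 1 match to CAGAC, on the minus strand, and 42.1% of 32851 windows of the same length before annotated starts held that motif. No match was found to CANNTG (the E-box), to GGCGCC (a GC-rich SMAD motif) or to TGTGGT (the core of the RUNX motif), which were held by 66.1% of the windows, by 9.52% and by 4600 of the 32851. No other motif overlapped the match.

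Skeletal nuclei, against all other nuclei, held higher levels of Bmp5 and of all 4 receptors, and the largest ratios belonged to Bmp5 and Bmpr1b. Bmp5 was 24.0-fold higher (15.5 to 38.8), Bmpr1b 6.11-fold (5.21 to 7.17) and Bmpr1a 2.16-fold (1.82 to 2.55). The ratio was 2.00 (1.72 to 2.33) for Acvr1, a value that lies just under the 2-fold limit before rounding, and 1.70 (1.49 to 1.93) for Bmpr2. Bmp6 had a ratio of 1.40 (1.02 to 1.90), which rested on 1 nucleus with 12 of its 62 UMIs and was 1.14 (0.808 to 1.58) without it. The Bmp6 ratio was 15.9 where only nuclei under 0.5% mitochondrial and 2.5% ribosomal UMIs were kept, and 0.732 at a doubled clustering resolution, so it hung on which nuclei were in each group. With every nucleus thinned to 500 UMIs, so that deep nuclei weighed no more than shallow ones, the ratio of Bmp5 was 7.10 and that of Acvr1 3.19, and Bmp5 reached 63.8 with the stricter mitochondrial limit. Thus 6 of the 7 members read had an interval above 1, where 20.0% of the 15225 genes with at least 10 UMIs did, and 3 were at least 2-fold higher, where 15.8% of all genes were. An interval leaves out 1 more readily at high counts, and those 6 members had 195 to 1057 UMIs in all nuclei. The members were also chosen with earlier results of these data known. No member had an interval below 1 (24.9% of all genes) and none was at least 2-fold lower (25.5% of all genes). The median ratio was 2.00 over these 7 members and 0.879 over all genes.

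**Figure D1:**
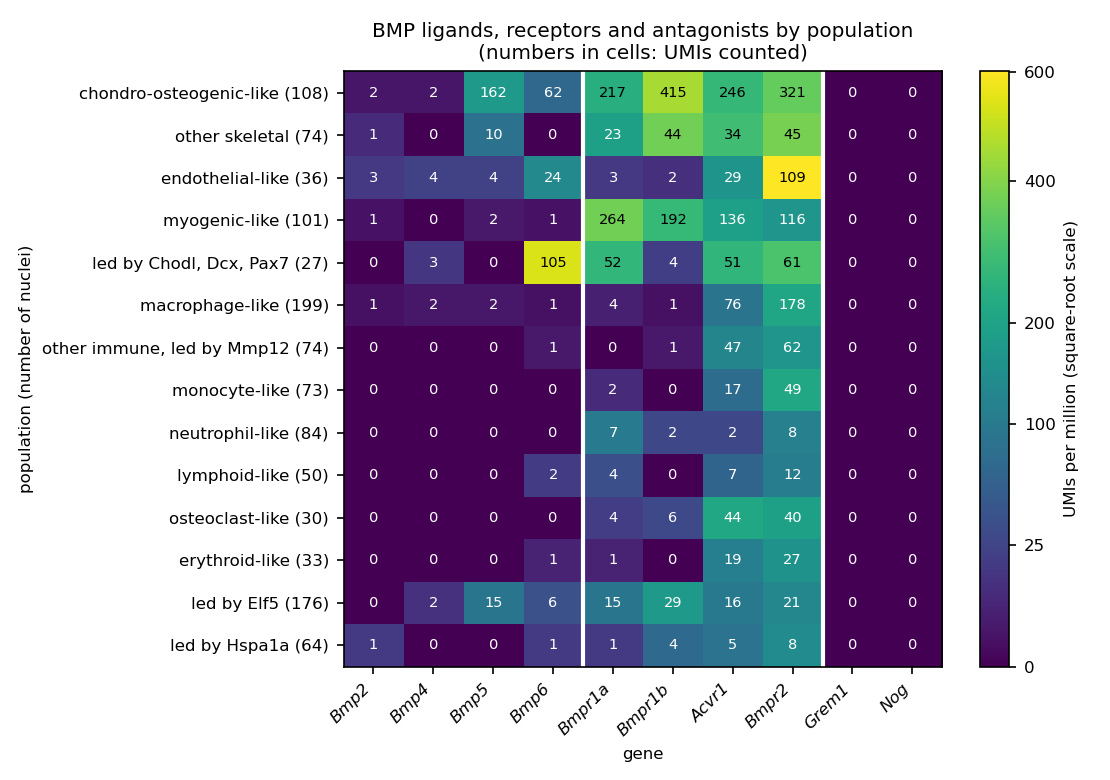
Level of each of the 10 genes (columns) in the 14 populations (rows, number of nuclei in brackets), as colour on a square-root scale of CPM, with the UMIs counted printed in each cell. White lines separate ligands, receptors and antagonists, and the 2 antagonists are at 0 UMIs in all 14 populations.

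Among the ligands, Bmp5 (a BMP of the BMP5/6/7 group with a role in cartilage condensation) was counted mostly in the chondro-osteogenic-like nuclei. They gave 162 of its 195 UMIs, a level of 177 CPM (151 to 206), from 45 of 108 nuclei. The name of that population rests on its cluster: by their own markers only 34 nuclei were chondro-osteogenic. Of the 51 skeletal nuclei with Bmp5, 12 held a UMI of Acan, 9 of Sp7, 7 of Col2a1 and 3 of Ibsp, whereas 44 held Postn, a gene of fibroblastic periosteal cells. Of the 131 without Bmp5, 19 held Acan, 7 Sp7, 14 Col2a1, 5 Ibsp and 79 Postn, at a median of 2784 UMIs against 8143. Acan stood at 638 CPM with Bmp5 and 245 without, Col2a1 at 824 and 517, and Sp7 at 91.8 and 31.2. Postn stood at 1911 and 1710 CPM, and Ibsp at 35.3 and 291. Dpp4, of the fibroblastic list, had 0 UMIs with Bmp5 and 50 without. The other skeletal nuclei gave 10 UMIs of Bmp5, 84.8 CPM (40.7 to 156), from 6 of 74 nuclei. The cluster led by Elf5 gave 15 UMIs, 91.7 CPM (51.3 to 151), from 10 of 176 nuclei, and the level of this shallow cluster did not differ from the other skeletal nuclei beyond counting error. It also held skeletal markers, at 2267 CPM for the fibroblastic list and 1681 CPM for the chondro-osteogenic list. Markers of other classes were there too, with the myogenic list at 1827 CPM, the immune list at 1644 CPM and the neutrophil list at 1131 CPM. The part of skeletal RNA in its Bmp5 level was not tested.

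Few UMIs of Bmp5 lay outside these populations. The 480 immune nuclei (macrophage-like, other immune, monocyte-like, neutrophil-like and lymphoid-like) together held 2 UMIs, 1.23 CPM (0.149 to 4.43), against 166 CPM (142 to 193) in skeletal nuclei. Myogenic-like nuclei held 2 UMIs. In the shallow populations a count of 0 limits little, since it allows up to 43.0 CPM in neutrophil-like and 26.9 CPM in lymphoid-like nuclei. The 4 UMIs of the endothelial-like nuclei lay in a single nucleus of 11113 UMIs, which also held 9 UMIs of Col2a1, 6 of Acan and 15 of Postn. Within the skeletal nuclei the UMIs were spread, with the top nucleus at 20 UMIs, and the ratio over all other nuclei was 21.5 (13.8 to 35.0) without it.

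Bmp6 (a ligand known for inducing hepcidin in iron homeostasis and for osteogenic activity) had a different set of sources. The cluster led by Chodl, Dcx and Pax7 gave 105 of its 204 UMIs, 535 CPM (437 to 647). Its UMIs came from 8 of the 27 nuclei, which held 27, 26, 17, 14, 9, 7, 4 and 1 UMIs. The remaining 19 nuclei held 0, at a median depth of 6831 UMIs against 6280 in the 8 nuclei. Without the top nucleus the level was 416 CPM (329 to 519), 17.4-fold (12.8 to 23.7) that of all nuclei outside the cluster, so the excess did not rest on that nucleus.

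Relative to depth, the 8 nuclei with Bmp6 held more of Pax7, Chodl, Dcx and Cdh15 than the other 19. Pax7 stood at 1570 CPM in the former and 306 CPM in the latter, and Chodl at 561 and 7.47 CPM. Pax7 had 98 UMIs in 8 of the 8 nuclei and 41 UMIs in 9 of the 19 without Bmp6. Chodl, a membrane lectin, had 35 UMIs in 7 of the 8 nuclei and 1 UMI in the 19 without Bmp6. Dcx had 20 UMIs in 3 of the 8 nuclei and 19 UMIs in 5 of the 19, or 320 and 142 CPM. Cdh15 had 11 UMIs in 6 of the 8 and 14 UMIs in 8 of the 19, or 176 and 105 CPM. These last counts are small, and no intervals were calculated for them. These genes were set beside Bmp6 after their values were seen, and no test was made.

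Endothelial-like nuclei gave 24 UMIs of Bmp6, 133 CPM (84.9 to 197), from 4 of 36 nuclei with 16, 6, 1 and 1 UMIs. Without the first of them the level fell to 45.3 CPM (19.6 to 89.3) and the ratio over all other nuclei from 3.07 (1.92 to 4.71) to 1.05 (0.446 to 2.11), so 1 nucleus decided it. Chondro-osteogenic-like nuclei gave 62 UMIs, 67.7 CPM (51.9 to 86.8), from 19 of 108 nuclei. The other skeletal nuclei gave 0 UMIs, which allows up to 25.4 CPM. The 480 immune nuclei held 4 UMIs, 2.45 CPM (0.668 to 6.28), each in a nucleus of its own.

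Bmp2 and Bmp4, ligands with bone-inducing activity, were counted too rarely to place. Bmp2 had 9 UMIs in all nuclei, 2.07 CPM (0.946 to 3.93), of which 3 were in endothelial-like and 3 in skeletal nuclei. Bmp4 had 13 UMIs, 2.99 CPM (1.59 to 5.11), of which 4 were in endothelial-like nuclei, 3 in 1 nucleus of the cluster led by Chodl, Dcx and Pax7, and 2 in chondro-osteogenic-like nuclei. In endothelial-like nuclei Bmp4 was at 22.1 CPM (6.02 to 56.6), a ratio of 10.2 (2.30 to 36.7) over all other nuclei, but 2 of the 4 UMIs lay in 1 nucleus and the interval without it was 0.552 to 25.3.

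**Figure D2:**
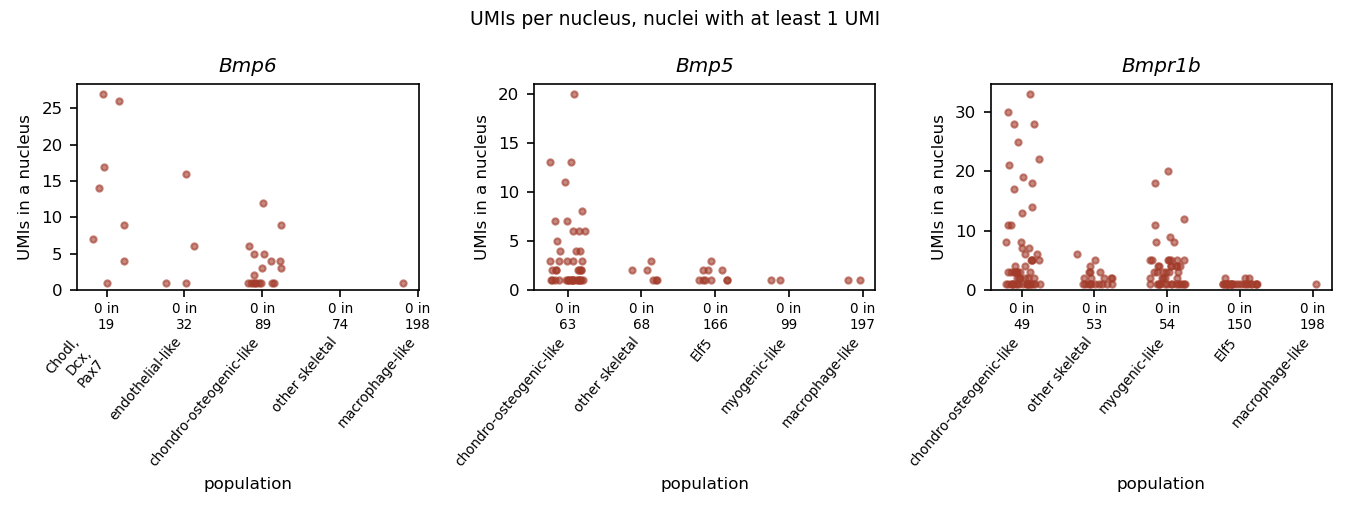
UMIs of Bmp6, Bmp5 and Bmpr1b in each nucleus with at least 1 UMI (points, spread sideways for view), by population, with the number of nuclei at 0 under each column. For Bmp6 the 8 points of the cluster led by Chodl, Dcx and Pax7 reach 27 UMIs and 1 endothelial-like nucleus stands at 16, whereas the chondro-osteogenic-like points of Bmpr1b spread from 1 to 33 UMIs.

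The type I receptors were divided between populations. Bmpr1a (ALK3) was highest in myogenic-like nuclei, with 264 UMIs at 372 CPM (328 to 419) in 64 of 101 nuclei. It followed in the cluster led by Chodl, Dcx and Pax7 at 265 CPM (198 to 347), in chondro-osteogenic-like nuclei at 237 CPM (206 to 271) and in the other skeletal nuclei at 195 CPM (124 to 293). The first differed from the second by a ratio whose interval was 1.04 to 1.93, and the following 3 did not differ from their neighbours beyond counting error. Myogenic-like nuclei held 1.60-fold (1.34 to 1.91) the skeletal level.

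In endothelial-like nuclei Bmpr1a had 3 UMIs, 16.6 CPM (3.42 to 48.4). The 199 macrophage-like nuclei held 4 UMIs, 4.73 CPM (1.29 to 12.1), and the 480 immune nuclei together 17 UMIs, so the skeletal level was 22.3-fold (13.6 to 38.9) the immune level. Of those 17 UMIs, 7 lay in 5 of 84 neutrophil-like nuclei, 100.3 CPM (40.3 to 207), a ratio of 21.2 (5.39 to 98.8) over macrophage-like nuclei. Myogenic markers stood at 1576 CPM in the neutrophil-like nuclei and at 72.1 CPM in the macrophage-like nuclei. Fibroblastic skeletal markers stood at 1189 and 316 CPM and chondro-osteogenic markers at 645 and 169 CPM in the same order. The part of myogenic or skeletal RNA in that Bmpr1a value was not tested.

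Bmpr1b (ALK6), which in limb development marks prechondrogenic condensations, was highest in skeletal nuclei. Chondro-osteogenic-like nuclei gave 415 of its 700 UMIs, 453 CPM (411 to 499), from 59 of 108 nuclei, and the other skeletal nuclei gave 44 UMIs, 373 CPM (271 to 501), from 21 of 74. Those levels did not differ beyond counting error, nor did that of the other skeletal nuclei from the myogenic-like level of 270.2 CPM (233 to 311), which came from 192 UMIs in 47 of 101 nuclei. Over all 182 skeletal nuclei the level was 444 CPM (404 to 487), and the myogenic-like level was 0.609 (0.511 to 0.722) of it.

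Skeletal RNA in the myogenic-like nuclei can be set beside that value. Their fibroblastic skeletal markers stood at 597 CPM against 15615 CPM in skeletal nuclei, and their chondro-osteogenic markers at 965 CPM against 9324 CPM. The part of such RNA in the myogenic-like level of Bmpr1b was not tested. The cluster led by Elf5 held Bmpr1b at 177 CPM (119 to 255) from 26 of 176 nuclei with at most 2 UMIs each.

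Elsewhere Bmpr1b was scarce. The cluster led by Chodl, Dcx and Pax7 had 4 UMIs of Bmpr1b and 52 of Bmpr1a. Endothelial-like nuclei had 2 UMIs, 11.0 CPM (1.34 to 39.9), and osteoclast-like nuclei 6 UMIs, 29.3 CPM (10.7 to 63.7). Macrophage-like nuclei had 1 UMI in 846009, or 1.18 CPM (0.0299 to 6.59), and all immune nuclei 4 UMIs, so the skeletal level was 181-fold (70.2 to 667) the immune level.

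Acvr1 (ALK2), the receptor altered in fibrodysplasia ossificans progressiva, was counted in all 14 populations. It was highest in the other skeletal nuclei, at 288 CPM (200 to 403) from 34 UMIs, and in chondro-osteogenic-like nuclei, at 269 CPM (236 to 304) from 246 UMIs. The cluster led by Chodl, Dcx and Pax7 followed at 260 CPM (193 to 342), osteoclast-like nuclei at 215 CPM (156 to 288), myogenic-like nuclei at 191 CPM (161 to 226) and endothelial-like nuclei at 160 CPM (107 to 230). No neighbours in the order of all 14 populations differed beyond counting error. Macrophage-like nuclei held 89.8 CPM (70.8 to 112) from 76 UMIs in 55 of 199 nuclei, and the skeletal level was 2.96-fold (2.42 to 3.64) that of all immune nuclei.

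The type II receptor Bmpr2, which is mutated in heritable pulmonary arterial hypertension, was also counted in all 14 populations. Endothelial-like nuclei stood highest, with 109 UMIs at 602 CPM (494 to 726) in 28 of 36 nuclei. The next was the other skeletal nuclei at 382 CPM (278 to 511), with an interval of 1.10 to 2.28 for the ratio between them, and chondro-osteogenic-like nuclei held 351 CPM (313 to 391). From the second rank down, no neighbours differed beyond counting error. Macrophage-like nuclei held 210.4 CPM (181 to 244) in 96 of 199 nuclei and myogenic-like nuclei 163 CPM (135 to 196) in 41 of 101.

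**Figure D3:**
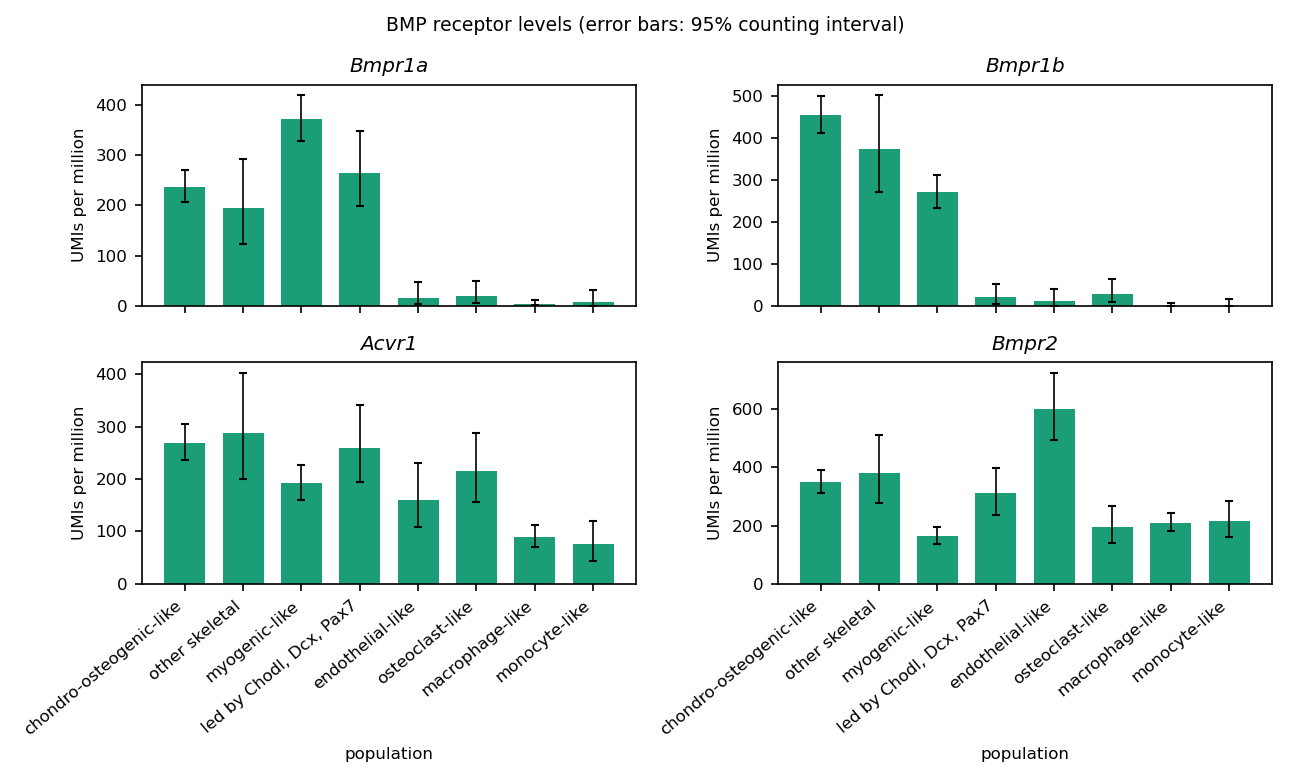
Level of each BMP receptor (one panel a gene, CPM on an axis from 0) in 8 populations, with 95% counting intervals as error bars. Bmpr1a and Bmpr1b are near 0 in the endothelial-like, osteoclast-like, macrophage-like and monocyte-like nuclei, where Acvr1 and Bmpr2 are not, and the endothelial-like bar of Bmpr2 stands at 602.

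Against all other nuclei, endothelial-like nuclei were 2.65-fold (2.15 to 3.23) higher in Bmpr2, whereas Acvr1 had a ratio of 0.954 (0.634 to 1.38), Bmpr1a of 0.116 (0.0239 to 0.341) and Bmpr1b of 0.0660 (0.00797 to 0.239). With Bmp4 and Bmp6, 3 of the 7 members had an interval above 1, where 10.8% of all genes did, and the same 3 were at least 2-fold higher, where 13.6% of all genes were. Without the nucleus with the most UMIs of the gene, only Bmpr2 was called. With every nucleus thinned to 500 UMIs no member was called in endothelial-like nuclei. Few counts were left there, with Bmp6 in 2 of the 36 nuclei and Bmp4 in 0, so a loss of counts cannot be set apart. Bmpr2 was then held by 6 of the 36, or 16.7% (6.37 to 32.8), against 15.4% of skeletal nuclei. Myogenic-like nuclei were 4.06-fold (3.44 to 4.78) higher in Bmpr1a and 1.93-fold (1.63 to 2.29) in Bmpr1b, and stood at 0.631 (0.516 to 0.766) of the other nuclei in Bmpr2. Immune nuclei stood at 0.0489 (0.0283 to 0.0789) of all other nuclei in Bmpr1a and at 0.00958 (0.00260 to 0.0246) in Bmpr1b, but at 0.428 (0.355 to 0.514) in Acvr1 and 0.689 (0.601 to 0.787) in Bmpr2.

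Another scaling (TMM, which trims extreme genes before it sets a library factor) moved every ratio of a comparison by the same amount on the log2 scale, 0.38 for myogenic-like nuclei and -0.20 for endothelial-like nuclei, and by under 0.1 in size for skeletal and immune nuclei. With it Acvr1 in myogenic-like nuclei was at 1.53 (1.26 to 1.85), above 1, where it was 1.17 (0.967 to 1.42) without it. Set against immune nuclei alone, the myogenic-like ratio of Bmpr2 turned from 0.861 (0.690 to 1.07) to 1.09 (0.875 to 1.36), and neither interval left out 1.

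**Figure D4:**
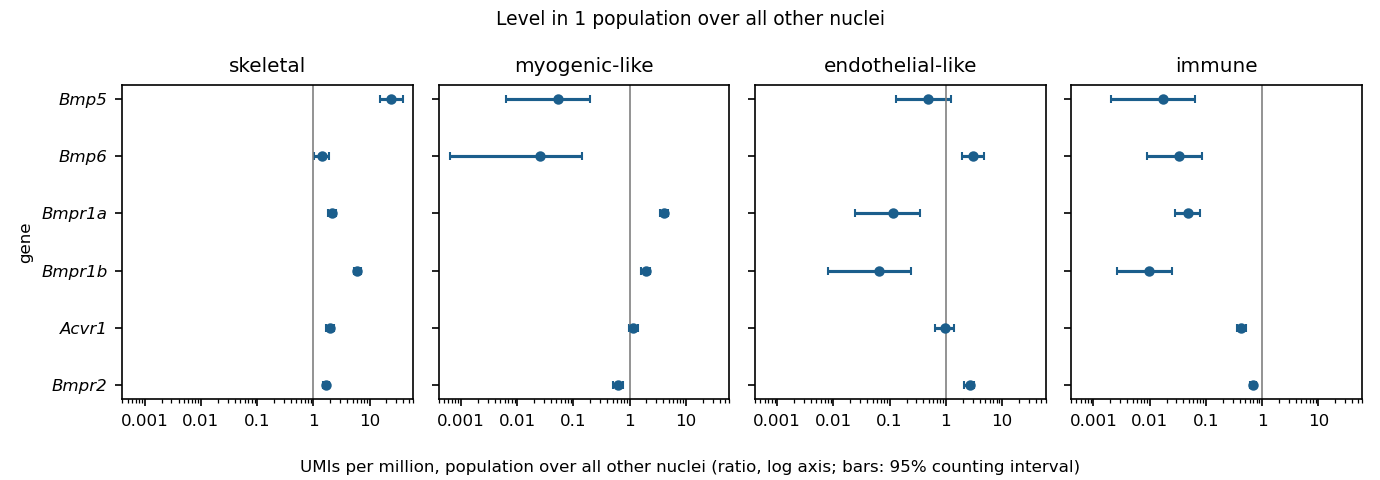
Ratio of CPM in skeletal, myogenic-like, endothelial-like or immune nuclei over all other nuclei (log axis), for the 6 members with at least 50 UMIs, with 95% counting intervals as bars and a grey line at 1. Bmpr1a and Bmpr1b lie right of the line in skeletal and myogenic-like nuclei and left of it in endothelial-like and immune nuclei.

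Receptor complexes need both types in the same cell. Pairs were counted only within the 10 genes, so other receptors of the pathway were left out. Among those, Acvr2a had 915 UMIs, at 265 CPM in skeletal, 227 CPM in myogenic-like and 194 CPM in immune nuclei. Acvrl1 stood at 71.8 CPM in endothelial-like nuclei. Pairs through those receptors are missing from the counts that follow. At the depth as sequenced, 96 of 182 skeletal nuclei had UMIs of Bmpr2 and of at least 1 of the 3 type I receptors, as did 38 of 101 myogenic-like, 15 of 36 endothelial-like and 29 of 199 macrophage-like nuclei. Within these 3 type I receptors, the partner differed. Among the endothelial-like nuclei 13 of the 15 had Acvr1, and among the macrophage-like nuclei 28 of the 29 did. Skeletal nuclei with Bmpr2 held Bmpr1a in 68, Bmpr1b in 60 and Acvr1 in 71 nuclei. Bmp5 and Bmpr1b were found together in 32 of the 51 skeletal nuclei with Bmp5. These counts move with depth, since the median was 3656 UMIs in skeletal, 5588 in myogenic-like, 3862 in endothelial-like and 3823 in macrophage-like nuclei.

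After each nucleus was thinned to 500 UMIs, the share of skeletal nuclei with a UMI was 11.0% (Clopper-Pearson 95% interval 6.84 to 16.5) for Bmpr1b, 9.89% (5.97 to 15.2) for Bmpr1a, 14.3% (9.55 to 20.2) for Acvr1 and 15.4% (10.5 to 21.5) for Bmpr2. The unthinned shares were 44.0%, 51.6%, 56.0% and 60.4%. Neutrophil-like and lymphoid-like nuclei were planned as populations in which this family should be low. Macrophage-like nuclei, not the planned background, had 0 of 199 with Bmpr1a or Bmpr1b after thinning. For each gene the interval ran up to 1.84%, and 3 counts would give 1.51%. This limits nuclei with a UMI at that depth, not nuclei that express the gene. Neutrophil-like nuclei, of median depth 748 UMIs, had 4 of 84 with Bmpr1a, or 4.76% (1.31 to 11.7), and 2 of 84 with Bmpr1b, an interval up to 8.34%. Lymphoid-like nuclei had 2 of 50 with Bmpr1a, or 4.00% (0.488 to 13.7), and 0 of 50 with Bmpr1b, an interval up to 7.11%. For both receptors these intervals overlapped the skeletal ones. For Bmp5 the skeletal share was 6.59% (3.45 to 11.2) and for Bmp6 3.30% (1.22 to 7.04), against 0 of 199 macrophage-like nuclei for both. Neutrophil-like nuclei had 0 of 84 for both, and lymphoid-like nuclei 0 of 50 for Bmp5 and 1 of 50 for Bmp6. Myogenic-like nuclei had Bmpr1a in 14.9% (8.56 to 23.3) and Bmpr1b in 8.91% (4.16 to 16.2).

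Between the skeletal populations as clustered, the ratio differed from 1 beyond counting error for the ligands Bmp5 and Bmp6 and for none of the 4 receptors. With each nucleus placed by its own markers instead, 5 members differed, at least 1 of them a receptor. The ratio of the chondro-osteogenic-like over the other skeletal nuclei was 2.09 (1.11 to 4.43) for Bmp5, and for Bmp6, with 62 UMIs against 0, the interval began at 2.10, or at 1.70 without the top nucleus. Set against the 3 UMIs that a count of 0 allows, Bmp6 was 2.66-fold higher. It was 1.21 (0.789 to 1.96) for Bmpr1a, 1.21 (0.888 to 1.70) for Bmpr1b, 0.931 (0.649 to 1.38) for Acvr1 and 0.918 (0.671 to 1.28) for Bmpr2. These intervals leave room for a difference, up to 1.96-fold for Bmpr1a. TMM scaling, explained above, moved all of these ratios by 0.20 on the log2 scale and put Bmpr1b at 1.39 (1.02 to 1.94), Acvr1 at 1.07 (0.744 to 1.58) and Bmpr2 at 1.05 (0.769 to 1.47). Of the 6 members with at least 10 UMIs in skeletal nuclei, 2 had an interval that left out 1, where 11.5% of 9660 genes did, and 2 differed at least 2-fold, where 29.6% of genes did. Without its top nucleus, the Bmp5 ratio was 1.86 (0.983 to 3.97). The depth of the populations differed as given above, and with every nucleus thinned to 500 UMIs the count of 2 fell to 0. Thinning left Bmp5 in 9 of 108 and 3 of 74 nuclei, and Bmp6 in 6 and 0. That fall therefore cannot be told from a loss of counts.

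The antagonists Grem1 and Nog had no UMI in any of the 1446 barcodes of the day 5 post-MTI library. In the 182 skeletal nuclei a count of 0 allows up to 2.90 CPM, and over all nuclei kept up to 0.690 CPM. Nog and Grem1 were thus not detected at this depth in any population, which does not show that they are absent.

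The other genes of the pathway were read by role, skeletal over all other nuclei. Of 9 other ligands 7 had a UMI, and the only gene with at least 10 was Bmp8a, 5.01-fold (2.57 to 10.0) higher. Of 8 other receptors and co-receptors, all read, 3 were at least 2-fold higher with an interval above 1 and 2 at least 2-fold lower with an interval below 1, beside 15.8% and 25.5% of all genes past those folds. The former were Neo1 at 3.42 (2.94 to 3.98), a receptor of repulsive guidance molecules, Rgma at 3.32 (2.55 to 4.31), a BMP co-receptor of that family, and the type I receptor Acvrl1 at 2.16 (1.32 to 3.48). Such a ratio does not make skeletal nuclei the highest population. Acvrl1 stood at 71.8 CPM (38.2 to 122.8) in endothelial-like and 29.99 CPM in skeletal nuclei. Neo1 stood at 338 CPM in myogenic-like and 353 CPM in skeletal nuclei. Of the 238 UMIs of Rgma, skeletal nuclei held 121 and the 27 nuclei of the cluster led by Chodl, Dcx and Pax7 held 49. Hjv, the co-receptor mutated in juvenile hemochromatosis, had the smallest ratio, 0.105 (0.0125 to 0.396), with 54 of its 63 UMIs in myogenic-like nuclei.

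Of 16 antagonists and modulators 15 were read. Of these, 10 were at least 2-fold higher with an interval above 1 and 2 at least 2-fold lower with an interval below 1. By the fold alone, 15.8% of all genes were higher and 25.5% lower. The largest ratios were those of Fstl1 at 16.6 (13.5 to 20.6), a secreted follistatin-like glycoprotein, Bmp1 at 14.4 (11.1 to 18.8), a procollagen proteinase that also cleaves chordin and is no BMP ligand, and the chordin-like Chrdl1 at 14.1 (7.60 to 28.0). Those lower were Chrd at 0.207 (0.0240 to 0.813) and Chrdl2, which had 0 of its 14 UMIs in skeletal nuclei and would not be 2-fold lower at the 3 UMIs that a count of 0 allows. Tll2 had 0 of its 12 UMIs in skeletal nuclei, with an interval up to 1.15. The median ratio of this role was 9.62. Fstl1 had 560 UMIs in skeletal nuclei at 542 CPM and 22 UMIs in immune nuclei at 13.5 CPM.

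Among 8 SMADs and regulators 1 was at least 2-fold higher with an interval above 1 and none lower. Past those folds, with no limit on the interval, were 15.8% and 25.5% of all genes. The gene counted was the inhibitory Smad6 at 3.82 (2.73 to 5.35), with 78.4 CPM in skeletal and 71.8 CPM (38.2 to 122.8) in endothelial-like nuclei. Smad9, which passed by the fold alone, stood at 3.21 (0.960 to 10.7) on 14 UMIs. Smad7 stood at 1.67 (1.25 to 2.21), and the ubiquitin ligase gene Smurf2 had the smallest ratio, 1.04 (0.904 to 1.18). Of 10 target genes 4 were read. Id3 was 4.49-fold (2.44 to 8.41) higher in skeletal nuclei, Id1 was at 1.33 (0.617 to 2.68) and Atoh8 at 0.701 (0.261 to 1.62). Of the 48 UMIs of Id3, skeletal nuclei held 28 and the cluster led by Chodl, Dcx and Pax7 held 8. Id1 stood at 60.8 CPM (30.3 to 109) in endothelial-like and 11.6 CPM in skeletal nuclei. Id2 was lower, at 0.149 (0.0537 to 0.334), with 106 of its 135 UMIs in immune nuclei.

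**Figure D5:**
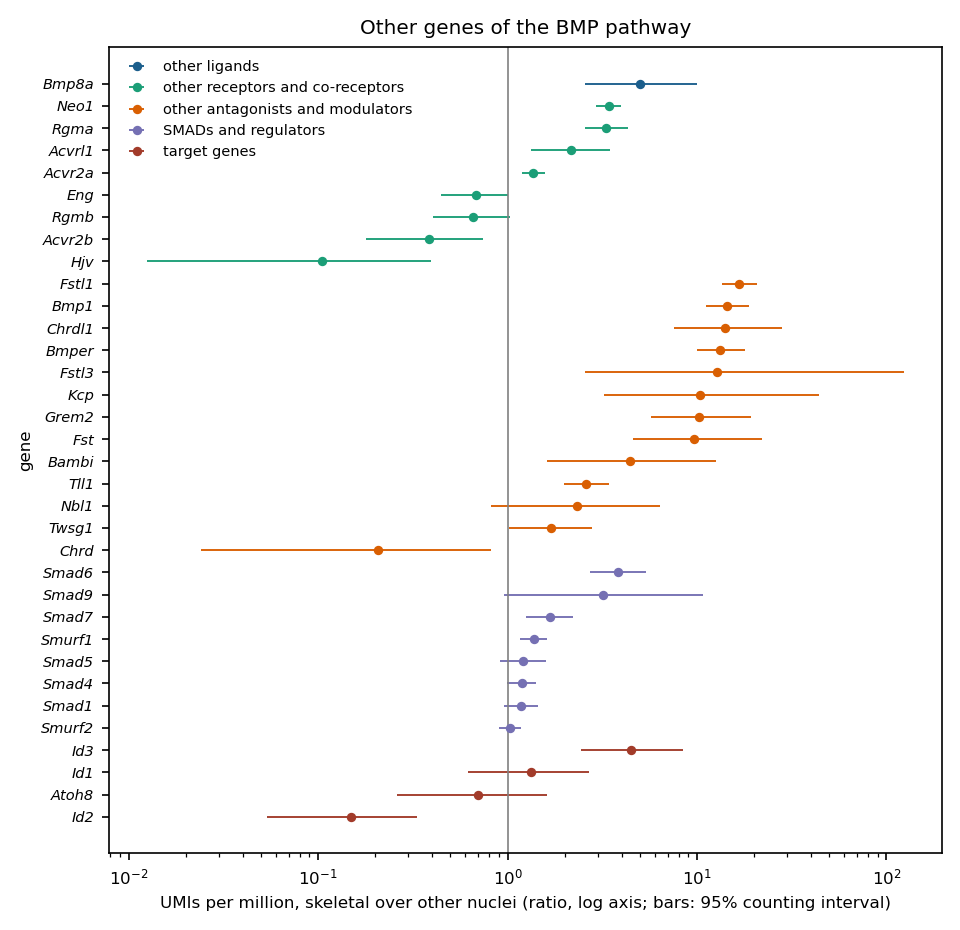
Ratio of CPM in skeletal over other nuclei (log axis) for the other pathway genes with at least 10 UMIs and at least 1 in skeletal nuclei, coloured by role, with 95% counting intervals as bars and a grey line at 1. Fstl1, at 16.6, is the point farthest to the right and Hjv, at 0.105, the point farthest to the left.

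The genes most like each member were sought by the Pearson correlation of log2(CPM + 10) over the 9 named populations, among 9557 genes with at least 50 UMIs. Bmp5 was nearest to Eef1akmt3 (0.997), Gm17501 (0.990) and Lurap1l (0.989), and Bmp6 to Cdr2l (0.981), Cachd1 (0.977) and Atp8b1 (0.972). Bmpr1a was nearest to Galnt17 (0.958), Fbxo17 (0.944) and Ptprd (0.941), and Bmpr1b to Tbx15 (0.962), Pard3 (0.961) and Zim1 (0.952). Genes near Acvr1 included St5 (0.951) and Pecr (0.95), and Bmpr2 was nearest to Gm41335 (0.967), Csrp1 (0.958) and Cdc42bpb (0.958). These correlations are a description over 9 points of 1 library, picked as the largest of many, and the cluster led by Chodl, Dcx and Pax7 was not among the points. Over all 14 populations other genes came first, with Gm9801 (0.983) nearest to Bmp5 and Mest (0.934) nearest to Bmp6, whereas Galnt17 (0.939) stayed first for Bmpr1a.

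The day 1 post-fracture library held the same genes at low depth. It had 48987 barcodes, of which 5523 had at least 200 genes, with a median of 382 UMIs. Those barcodes held 71 UMIs of Bmp5 at 27.9 CPM (21.8 to 35.2), 102 of Bmp6 at 40.1 CPM (32.7 to 48.7) and 504 of Bmpr1b at 198 CPM (181 to 216). Acvr1 had 260 UMIs, Bmpr1a 253 and Bmpr2 274, and Bmp2 and Bmp4 had 16 each. The ratio of these barcodes over the 43464 under 200 genes was 0.957 (0.863 to 1.06) for Bmpr1b, 1.08 (0.809 to 1.43) for Bmp5 and 1.10 (0.949 to 1.26) for Bmpr2. It was above 1 for Bmpr1a at 1.23 (1.06 to 1.43), Acvr1 at 1.25 (1.07 to 1.45) and Bmp6 at 1.28 (1.00 to 1.63). The UMIs of this library were not placed in cell populations. Grem1 had 2 UMIs in barcodes of at least 200 genes and 8 below, and Nog 1 and 13. The libraries differed in day as well as in injury, so no comparison was made between them.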

How the data were processed

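Nuclei from injured tibias were sorted by a DNA stain and processed by the authors with the 10x 3′ v3.1 kit. The deposited UMI counts per gene and barcode were made by the authors with Cell Ranger 7.0.1 on mm10 (per the file headers and labels), counting intronic and exonic reads. The protocol label names a human reference, but all 32285 features were mouse genes. Barcodes of 200 to 5000 genes, under 5% mitochondrial and 2% ribosomal UMIs were kept. They were clustered with Seurat 5.3.0 (2000 variable genes, 30 components, resolution 1), and immune (20, 1.5) and skeletal (15, 0.5) clusters again. BMP pathway genes were left out of clustering. A name needed 3 markers at 1.5-fold with 3 UMIs each, the pooled list at 1.5-fold and a marker among the 100 leading genes. It was withheld where another class had more markers among the top 10, or where a shallow cluster had none there. Scrublet marked 6 of 1129 nuclei (0.531%), which were kept. Levels and ratios used summed counts (scipy, thresholds of 10 UMIs and 2-fold, 95% intervals). The interval code was tested on simulated Poisson sums, which hold no clumping of UMIs in a few nuclei, so it shows nothing about such clumping. All 10 members are described. Of other pathway genes, the 3 largest ratios and the smallest of each role are named, with the 3 genes most like each member, of which 1 is not reported here. Members and lists were chosen with earlier results of these data known, and the naming thresholds were set after clusters were seen. Without replicates no test was run. Alternatives changed filters, clustering, doublets, naming, scaling (edgeR 4.0.16 TMM factors), thinning and fold.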

Additional observations from a re-analysis of the deposited data

Results flagged for a closer look

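The 317 barcodes that the filters removed from the day 5 post-MTI library were outside the comparisons of the report (the 16 more nuclei kept with no maximum of genes entered that setting only), and 7 of the 10 genes had more UMIs in them than the 3 that a count of 0 allows. They held 444 UMIs of Bmpr1b, 340 of Bmpr2, 303 of Acvr1, 229 of Bmpr1a, 106 of Bmp5, 86 of Bmp6 and 4 of Bmp2. The 21 barcodes with over 5000 genes held 258 of those Bmpr1b UMIs, 431 CPM, and 45 of those Bmp5 UMIs, 75.3 CPM. Grem1 and Nog had 0 UMIs there.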

How the results depend on the processing

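The count of members higher in skeletal nuclei was 6 and stayed at 5 or 6, and that of members lower stayed at 0, under all 11 other settings and without the nucleus with the most UMIs of each member, which was added after the data were seen. Bmp5, Bmpr1a, Bmpr1b, Acvr1 and Bmpr2 kept a ratio above 1 in all 11, from 7.10 to 63.8 for Bmp5 and from 4.46 to 7.24 for Bmpr1b. Bmp6 did not: at doubled resolution, where the named skeletal nuclei fell to 96, its log2 ratio was -0.45, and over the 11 settings its ratio ran from 0.732 to 15.9. The count at least 2-fold higher in skeletal nuclei, 3, was 4 under 8 of the 11 settings and 5 at a fold of 1.5. The count for endothelial-like nuclei, 3, was 1 with each nucleus placed by its own markers, 0 with every nucleus thinned to 500 UMIs and 1 without the top nucleus. The count that differed between skeletal populations, 2, was 5, 0 and 1 under those same settings. It was 3 with the stricter mitochondrial limit and 3 with TMM scaling. The 5 are more than there are ligands, and the antagonists had 0 UMIs, so at least 1 receptor was among them. Thinning removed most UMIs, so neither count of 0 can be told from a loss of counts. No value was had for the skeletal populations without a maximum of genes, at doubled or halved resolution, or with nothing regressed out, since no chondro-osteogenic-like cluster was named. Thinning to 1000 UMIs gave skeletal shares of 0% for Bmp2, 17.0% for Bmpr1a, 22.6% for Bmpr1b, 20.8% for Acvr1 and 27.7% for Bmpr2. Other causes were not tested. No paired analysis was possible because each condition had 1 library. Few or no UMIs limit what can be read for Bmp2, Bmp4, Grem1 and Nog.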
